A study of Caenorhabditis elegans with 15 samples.

Results

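The control worms of this study were whole wild-type N2 Caenorhabditis elegans that had received only the solvent, 0.05% DMSO, from the L4 larval stage to day 12 of adulthood. They make up 5 of the 15 libraries, named here replicates 1 to 5, and were chosen by their deposited DMSO label. They lived at 22 °C on agar with E. coli OP50 and 100 µM FUdR, a thymidylate synthase inhibitor that stops the production of offspring, and 3000 to 4000 worms were pooled per tube. The other 10 libraries come from worms given plant extracts and are not described. The labels call the 5 libraries biological repeats, without saying which tubes shared a plate or a day, so the SD given below is the spread between tubes.

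An adult hermaphrodite is in large part a gonad surrounded by intestine, muscle, epidermis and neurons. The gonad carries dividing germ cells, meiotic cells and oocytes, and in wild type it first makes a limited stock of sperm. In a reproducing adult the intestine makes yolk proteins for the oocytes, the epidermis maintains a collagen cuticle, and germ cells keep most of the X chromosome at low expression. RNA from whole worms sums all of these tissues, so fewer cells of a type and less RNA per cell cannot be told apart.

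The libraries held 37920765 to 82839505 assigned fragments, with a median of 45859124. The values are FPKM, the number of fragments of a gene per kilobase of gene, relative to all fragments of the library, as the authors deposited them. Protein-coding genes took 98.7% ± 0.0604 (SD, n = 5) of all FPKM, and the shares below are percentages of the protein-coding FPKM of a library. No treated group enters, so every result is a level or a spread between the 5 libraries, and no test between groups was run. Of 19725 protein-coding genes, 11482 (58.2%) reached an FPKM of at least 1 in all 5 libraries, and each library alone had 12057 to 12445 such genes. An FPKM of at least 100 was reached by 1327 genes in all 5 libraries.

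The most abundant messages were those of the protein synthesis machinery. The 10 most abundant genes of each library took 7.92% ± 0.265 (SD, n = 5) of protein-coding FPKM, the 100 most abundant 38.9% ± 1.00 and the 1000 most abundant 66.4% ± 0.870. Between 246 and 311 genes were enough to reach 50% of it, with replicate 5 at the low end and replicate 3 at the high end. Among the 25 genes with the highest mean level, 22 belong to the class of genes named for cytosolic ribosomal proteins, and among the first 100 there are 77. Homologues that carry only a clone name are not counted in these.

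**Figure D1:**
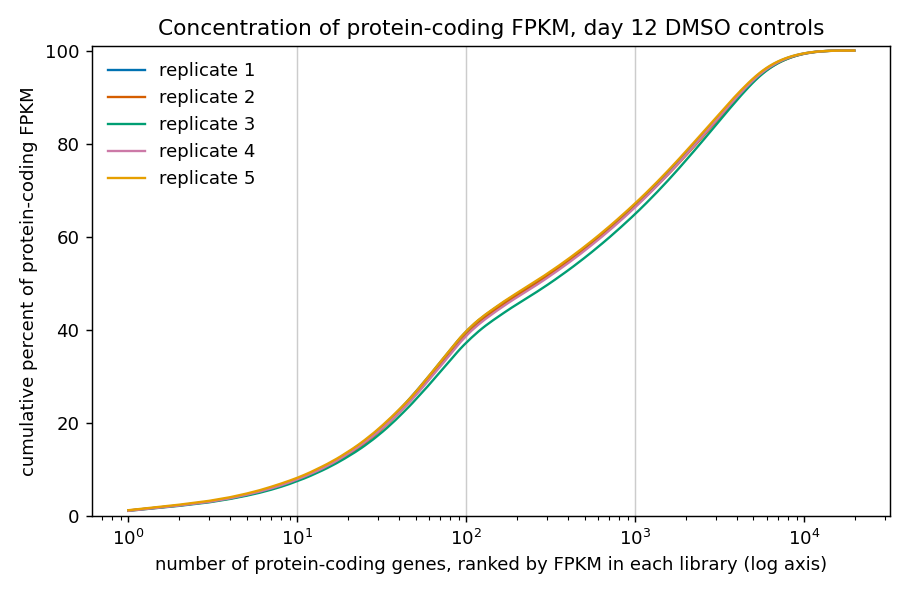
Cumulative percent of protein-coding FPKM (vertical axis) against the number of genes ranked from the most abundant (horizontal log axis), with 1 line per DMSO library and grey lines at 10, 100 and 1000 genes. The 5 lines lie close together, with replicate 3 lowest at 100 genes (37.3%) and replicate 5 highest (39.8%).

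At the head stood eef-1A.1, which encodes the elongation factor that brings aminoacyl-tRNA to the ribosome and lies on chromosome III at 6970026 to 6971712 (WBcel235). Its FPKM in replicates 1 to 5 was 10925, 11164, 10131, 10154 and 10599. The acidic stalk protein gene rla-0, on chromosome I at 10567894 to 10569017, came next with 10157, 9558, 9186, 10299 and 11611. These ranges overlap, so the order of the first and second gene is not fixed by the 5 libraries. The lowest library of rla-0 was above the highest of rps-23, the next gene (mean 6900 ± 226 SD, n = 5), which encodes a small subunit protein on chromosome IV at 12390298 to 12391053. After that, each of the first 25 genes overlapped its neighbour in range, and 23 of 24 neighbouring pairs overlapped in all.

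The following places were held by rpl-11.1 (6768 ± 416), Y37E3.8 (6537 ± 395), rla-1 (6096 ± 349), rpl-10 (5954 ± 487), rpl-23 (5870 ± 202), rpl-38 (5668 ± 272) and rpl-36 (5507 ± 261). Y37E3.8 has only a clone name in the table and lies beside rla-1 on chromosome I, at 2069681 to 2070607. Then came rpl-7, rps-25, rpl-13, rps-16, rpl-27, rpl-36.A, rpl-43, rpl-2, rps-21, rps-27, R09B3.3, rpl-14, rps-14, rps-15 and rps-12, with means that fell from 5287 for rpl-7 to 4186 for rps-12. All but one of these are ribosomal proteins. The exception is R09B3.3, now named rbm-3.2, an RNA-binding protein gene at 4356 ± 294.

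All 83 genes of the cytosolic ribosomal protein class were at an FPKM of at least 1 in every library, and their share was 32.4%, 31.7%, 30.3%, 31.5% and 32.3% in replicates 1 to 5. The class therefore took close to the same share in each library, lowest in replicate 3. Its median gene was at an FPKM of 3258. The lowest member, named here after its values were seen, was rpl-42 at a mean of 3.02, far below the rest of the class. Counted as fragments, without division by gene length, the class took 16.6% of protein-coding fragments, a scale on which short genes such as these weigh less. By fragments the leading genes were eef-1A.1, rla-0, daf-21, eef-2 and pab-1, and 11 of the 25 leading genes were the same in both rankings.

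Beyond the ribosome, the most abundant genes still served translation and protein folding. The 46 translation factors, all at an FPKM of at least 1, took 3.51% ± 0.0642 (SD, n = 5). After eef-1A.1 they were led by eef-1G (2459 ± 157), part of the complex that reloads elongation factor 1A, eef-2 (2314 ± 75.7), which moves the ribosome along the message, and pab-1 (2224 ± 46.1), the poly(A)-binding protein. The 55 large chaperones took 1.44% ± 0.0109, led by daf-21 (2913 ± 235), the HSP90 gene now named hsp-90, crt-1 (1360 ± 29.8), the calreticulin of the endoplasmic reticulum, and hsp-1 (1192 ± 72.1), a cytosolic HSP70. The ubiquitin class (0.834% ± 0.0111) was led by ubq-2 at 3231 ± 162, which encodes ubiquitin fused to a ribosomal protein, and by the polyubiquitin gene ubq-1 at 593 ± 9.46. All 33 proteasome genes were at an FPKM of at least 1 and together took 0.833% ± 0.0144, with pas-3, an alpha subunit of the core, at the top (457 ± 27.6).

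Energy metabolism formed a second steady block. The class of 71 genes named for the nuclear respiratory chain and ATP synthase took 1.71% ± 0.0196 (SD, n = 5). Within it the leading genes were the cytochrome c gene cyc-2.1 (1401 ± 130) and atp-3 (687 ± 16.3), a subunit of ATP synthase. Homologues that carry only a clone name may be missing from this class. The adenine nucleotide carrier ant-1.1, which exchanges ADP and ATP across the inner mitochondrial membrane, was at 1913 ± 58.8 and made up nearly the whole of its class of 4 carriers. Of the 12 protein-coding genes of the mitochondrial genome, 11 reached an FPKM of at least 1 in every library. Their share was 0.2998%, 0.349%, 0.374%, 0.337% and 0.335% in replicates 1 to 5, lowest in replicate 1. The cytochrome oxidase subunit gene ctc-3 led them at 793 ± 74.0, followed by ctc-1 (628 ± 47.05), atp-6 (503 ± 44.6) and ctc-2 (326 ± 25.6), and ndfl-4 was at the bottom at 0.595 ± 0.340.

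The enzymes of central carbon metabolism were present throughout. All 23 genes of the TCA and glyoxylate cycle and all 23 of glycolysis and gluconeogenesis were at an FPKM of at least 1 in every library. The citrate synthase gene cts-1 was at 420 ± 15.6 and the enolase gene enol-1 at 390 ± 20.8 (SD, n = 5). Of 56 fatty acid synthesis genes 52 were at this level, led by the elongase elo-1 (366 ± 21.8) and the omega-3 desaturase fat-1 (351 ± 17.2). The S-adenosylhomocysteine hydrolase gene ahcy-1 stood well above the other 12 genes of the methionine cycle, at 936 ± 47.1. In the oxidative defence class of 79 genes, 44 were at an FPKM of at least 1 in all libraries, with the peroxiredoxin prdx-2 at 549 ± 29.4, the cytosolic superoxide dismutase sod-1 at 177 ± 7.83 and the mitochondrial sod-2 at 166 ± 14.1.

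**Figure D2:**
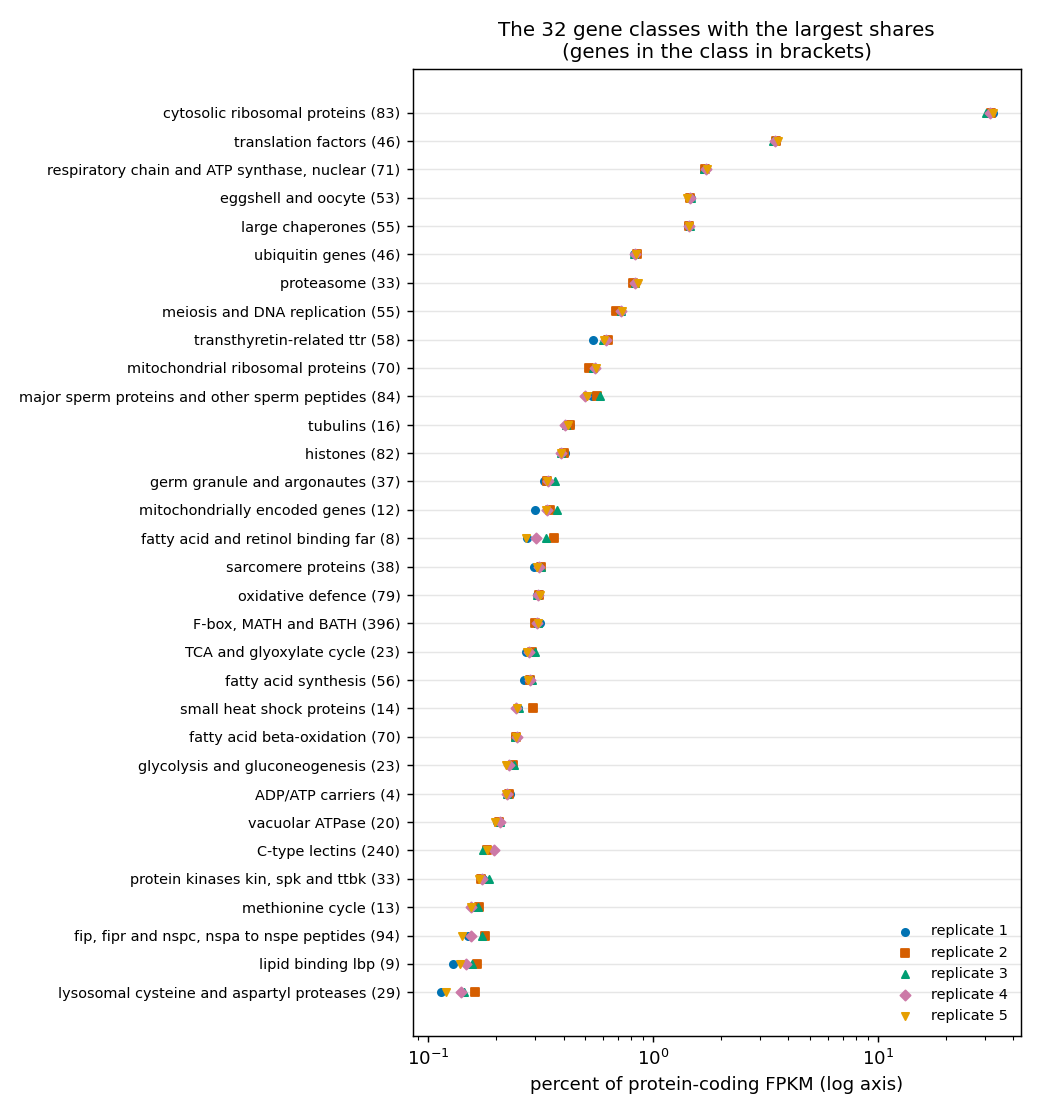
Percent of protein-coding FPKM (horizontal log axis) for the 32 gene classes with the largest shares, with 1 symbol per DMSO library and the number of genes in brackets. Cytosolic ribosomal proteins (31.7% on average) lie far to the right of translation factors (3.51%), and the symbols of most classes fall on top of each other.

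The 48 classes used here are written from gene names and cover only part of the transcriptome. The remaining 15276 protein-coding genes held 50.1% ± 0.737 (SD, n = 5) of the FPKM. Of the 100 most abundant genes 5 have only a clone name. They are Y37E3.8, W01D2.1 (4178 ± 155), C37A2.7 (3563 ± 109), Y82E9BR.3 (1712 ± 75.6) and F08B12.4 (1452 ± 134). The first 3 are known as homologues of ribosomal proteins, and with them the ribosomal share is 33.3%. F08B12.4 varied most of the 5, from 1290 in replicate 1 to 1649 in replicate 2.

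Families of secreted and lipid-binding proteins each had 1 or 2 leading genes. The transthyretin-related ttr genes, secreted proteins that are a large family in nematodes, took 0.599% ± 0.0363 (SD, n = 5), with ttr-51 at 1883 ± 110 and ttr-2 at 1450 ± 81.4. The 8 far genes, which encode secreted fatty acid and retinol binding proteins, took 0.310% ± 0.0390. Most of that came from far-2, at 1191, 1706, 1526, 1396 and 1276 in replicates 1 to 5, and far-1, at 1088, 1285, 1126, 1062 and 960. Both were highest in replicate 2. The fatty acid binding gene lbp-2 was at 607 ± 98.1 and the C-type lectin clec-87 at 683 ± 54.3, and clec-87 alone held 41.9% of the FPKM of 240 lectin genes.

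Small heat shock proteins, which hold unfolding proteins in solution, were represented almost entirely by sip-1, known for its expression in oocytes and embryos. Its FPKM was 2134, 2412, 1996, 2036 and 2075, so it was highest in replicate 2, and it made up 93.2% of the class of 14. The next member, hsp-43, had 41.5, 90.01, 88.0, 56.7 and 40.9, high in replicates 2 and 3 and lowest in replicates 1 and 5. The heat-inducible hsp-16.2 (8.77 ± 0.347) and hsp-16.41 (8.39 ± 1.40) were low in all 5 libraries. The hsp-16 genes are close copies of each other and their reads may be divided between them.

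Genes of the germ line and of oocytes were at high levels in all 5 libraries. The 53 genes of the eggshell and oocyte class took 1.48%, 1.46%, 1.47%, 1.46% and 1.41% of protein-coding FPKM in replicates 1 to 5, the lowest being replicate 5. It was led by genes of the eggshell permeability barrier. The FPKM of perm-4 was 2235, 2410, 2205, 2169 and 2104. That of perm-2 was 1605, 1665, 1481, 1521 and 1490. Next in the class was the Y-box RNA-binding gene cey-4 (1089 ± 32.1 SD, n = 5), which is not in the oocyte marker list used below. The chondroitin proteoglycans of the eggshell, cpg-2 (862 ± 30.8) and cpg-1 (799 ± 38.8), followed.

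Tissues were then read by the median gene of a marker list. All 27 genes of the oocyte and eggshell list, all 32 of the germ line list and all 40 of the sperm list were at an FPKM of at least 1 in every library. Their median gene was at 145 ± 3.63, 100 ± 2.79 and 78.7 ± 5.06 (SD, n = 5), and the ranges of these 3 medians did not overlap. In the oocyte list pos-1 (325 ± 21.3) and mex-5 (307 ± 15), RNA-binding proteins that pattern the early embryo, stood below the leading eggshell genes, and the chitin synthase gene chs-1 was lowest at 20.95 ± 1.88. The yolk receptor of oocytes, rme-2, was at 130 ± 2.77.

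The germ line list was led by iff-1 (1764 ± 140), a germ-line initiation factor 5A, gld-1 (533 ± 13.1), a repressor of translation during meiosis, prg-1 (426 ± 18.02), the piRNA argonaute, and glh-1 (382 ± 10.6), a P granule helicase. The stem cell regulator fbf-2 was lowest at 18.6 ± 0.571. In the class of meiosis and DNA replication all 55 genes were at an FPKM of at least 1, with the replication clamp pcn-1 at 605 ± 38.5. Among histones, the H3.3 gene his-72 (757 ± 26.5) and the H2A.Z gene htz-1 (558 ± 30.7) led, and 8 of 82 genes were listed at 0. The other histone genes are in large part identical copies, between which reads cannot be assigned with certainty.

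Sperm genes were present, although hermaphrodites make sperm mainly before they turn to oocytes. The class of major sperm proteins and other sperm peptides, with 84 genes, took 0.536%, 0.566%, 0.578%, 0.498% and 0.509% of protein-coding FPKM, lowest in replicate 4. Its leading gene was msp-40 at 245 ± 12.6 (SD, n = 5), followed in the sperm list by msp-57 at 200 ± 18.98. The msp genes are nearly identical, so the value of a single copy is uncertain. Lower values were read for genes outside the msp family. The phosphatase gsp-3 was at 88.4 ± 4.58, the calcium channel spe-41 at 30.1 ± 3.53, and spe-9, a sperm surface protein, at 1.73 ± 0.384. The male list, by contrast, had 2 of 10 genes at an FPKM of at least 1, her-1 (6.14 ± 0.837) and mab-3 (2.47 ± 0.249), and its median gene was at 0.260 ± 0.0748.

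**Figure D3:**
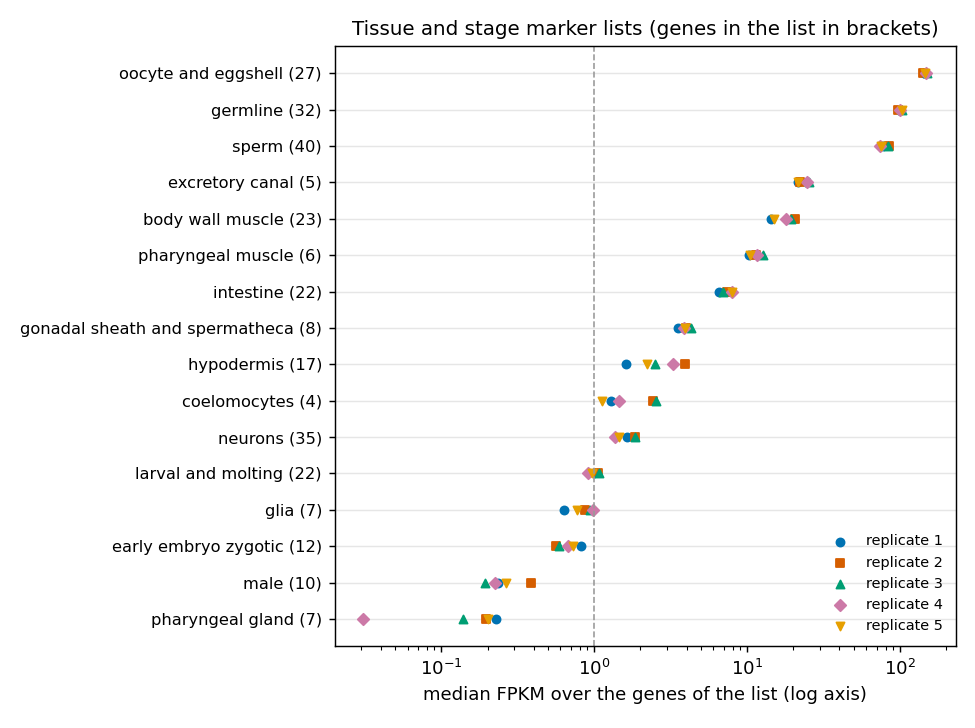
Median FPKM over the genes of each tissue or stage list (horizontal log axis), with 1 symbol per DMSO library, the number of genes in brackets and a dashed line at an FPKM of 1. The oocyte, germ line and sperm lists lie between 73.4 and 150, the somatic lists at or below 25.4, and the male and pharyngeal gland lists at or below 0.386.

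Somatic tissues were read at lower levels. Their lists stood in the order excretory canal (median gene 22.96 ± 1.84 SD, n = 5), body wall muscle (17.3 ± 2.68), pharyngeal muscle (11.2 ± 0.933), intestine (7.36 ± 0.631) and gonadal sheath and spermatheca (3.90 ± 0.267), with no overlap between neighbours. The hypodermis (2.696 ± 0.891), coelomocyte (1.76 ± 0.660) and neuron (1.63 ± 0.220) lists overlapped their neighbours and have no fixed order. These lists differ in size, from 4 to 35 genes, and many of their genes are used outside the named tissue, so the order is one of lists and not of tissue mass.

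In muscle the genes with the highest values were those that other cells also use. The actin act-2 was at 650 ± 12.7 (SD, n = 5), the cofilin gene unc-60 at 560 ± 21.03 and the non-muscle myosin light chain mlc-4 at 378 ± 10.9. The thick filament genes given here as examples were far lower. They do not stand for the whole body wall muscle list of 23 genes, whose median gene (17.3 ± 2.68) was above unc-54 and myo-3. The myosin heavy chain unc-54 was at 4.52, 8.22, 7.33, 6.76 and 4.58 in replicates 1 to 5, the paramyosin gene unc-15 at 14.5, 21.2, 21.4, 17.8 and 14.9, and the thick filament myosin myo-3 at 2.93, 3.69, 3.64, 2.20 and 2.94. All 3 were detected in every library, and unc-54 and unc-15 were lower in replicates 1 and 5 than in the others. The sarcomere class of 38 genes took 0.310% ± 0.00991 of protein-coding FPKM, and 0.1003% without act-2, act-5, mlc-4, mlc-5 and unc-60.

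Yolk protein genes, which are intestinal, took 0.0585% ± 0.0211 (SD, n = 5) of protein-coding FPKM and 0.239% of protein-coding fragments, since they are long. The gene vit-2 was at 225, 468, 468, 368 and 223 in replicates 1 to 5 and ranked at 260 among protein-coding genes by FPKM and at 61 by fragments. The gene vit-6 was at 71.7, 162, 160, 130 and 74.0. For vit-5 the values were 26.1, 61.2, 52.2, 57 and 30.8. In each of these 3 genes, replicates 1 and 5 were below all of replicates 2, 3 and 4. The remaining yolk genes were near or below 1, with vit-1 at 1.41 ± 0.452, vit-3 at 0.171 ± 0.0977 and vit-4 at 0.148 ± 0.109 (SD, n = 5). The close copies vit-3, vit-4 and vit-5 may share reads.

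Intestinal markers did not all move together. The aspartyl protease asp-1 was at 29.2, 75.3, 44.5, 51.7 and 28.9, low in replicates 1 and 5 like the yolk genes, and with the protease cpr-1 and the yolk genes it made up the 5 of 18 list genes that varied most, described further below. The GATA factor elt-2, which defines the intestine, was at 7.83, 8.53, 7.09, 8.42 and 9.23, and the microvillar actin act-5 at 72.9, 73.8, 61.5, 76.5 and 95.6. Both were highest in replicate 5, a library in which the yolk genes were low. The summed level of the 22 intestinal genes was 522, 990, 924, 811 and 565, with vit-2 the largest part of it. Their median gene, by contrast, lay between 6.51 and 7.98.

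Cuticle genes were quiet. Of 176 cuticle collagens 33 were at an FPKM of at least 1 in every library, and the class took 0.0329%, 0.0552%, 0.0483%, 0.0497% and 0.0348% of protein-coding FPKM in replicates 1 to 5. The most abundant were col-119 (42.2 ± 16.4 SD, n = 5), col-95 (40.6 ± 9.17), col-181 (39.7 ± 12.4) and col-106 (37.5 ± 8.89). The adult-stage collagen col-19 was at 1.11, 4.00, 2.42, 4.20 and 1.13. In the larval and molting list 9 of 22 genes were at an FPKM of at least 1, and its collagen rol-6 was very low (0.128 ± 0.0485). The larval collagen dpy-7, which is in the hypodermis list, was also very low (0.134 ± 0.0980). The 2 highest genes of the larval and molting list were lin-28 (102 ± 8.20), an RNA-binding regulator of larval timing, and nhr-23 (42.1 ± 2.82), a nuclear receptor of the molting cycle.

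Neuronal genes ranged widely. Of 35 listed, 19 were at an FPKM of at least 1 in every library. The synaptobrevin gene snb-1 led at 313 ± 9.18 (SD, n = 5), followed by tbh-1 (72.8 ± 10.2), which makes octopamine and is also used in the gonadal sheath. The pan-neuronal gene unc-119 was at 11.5 ± 1.13 and rab-3, a synaptic vesicle GTPase, at 3.45 ± 0.420. The acetylcholine transporter unc-17 was at 0.613 ± 0.146, below 1 in all 5 libraries. Neuropeptides outside the nlp-29 cluster were broadly detected, with 88 of 99 at an FPKM of at least 1 and nlp-36 highest (125 ± 12.7). Of 39 insulin-like peptides 20 were at that level, led by ins-37 at 35.6 ± 2.11.

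Zygotic genes of the early embryo were low in these worms, which were kept on FUdR. Of 12 listed, 1 was at an FPKM of at least 1 in all 5 libraries, die-1 at 16.3 ± 1.24 (SD, n = 5), and the median gene of the list was at 0.674 ± 0.103. The endoderm specifiers end-1 and end-3 had means of 0.346 and 1.08, and med-1 and med-2 of 0.0395 and 0.0364. Maternal genes such as pos-1 and mex-5 are made in the gonad and do not mark embryos. No list here measures age, so the labelled day could not be checked against the data.

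Genes on the X chromosome were expressed below those on the autosomes. The X holds 13.5% of protein-coding genes and took 3.47% ± 0.150 (SD, n = 5) of protein-coding FPKM. Among genes with a mean FPKM of at least 1, the median X-linked gene was at 5.68 (1511 genes) and the median autosomal gene at 19.5 (10726 genes). The difference of the medians on the log2 scale was -1.84, -1.80, -1.82, -1.76 and -1.84 in replicates 1 to 5, below 0 in all 5. Chromosome III had the highest share of its genes at this level (79.9%), followed by chromosome I (77.9%), and chromosome V the lowest (44.6%).

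The X chromosome had 2 of the 100 and 33 of the 1000 most abundant genes. They were rpl-11.2 (1535 ± 158), a copy of a ribosomal protein gene, and F08B12.4. Below them came ZK813.1 (949 ± 42.05), Y62H9A.5 (820 ± 86.3), ZK813.3 (736 ± 69.03), eef-1A.2 (718 ± 27.6), the second elongation factor 1A gene, and ule-5 (696 ± 71.9), all named after their values were seen. The ule genes encode secreted proteins of the uterine lumen.

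At the other end, 687 of 19725 protein-coding genes (3.48%) were listed at 0 in all 5 libraries. Over the summed depth, 3 fragments in a gene of 1 kb correspond to an FPKM of 0.0113, which is the limit that a count of 0 allows, for counting error only. A value of 0 is not proof of silence. The table also lists at 0 genes with identical copies, such as his-20, his-30 and his-33, and nola-3, which encodes a protein of the particles that modify ribosomal RNA in all cells and was noticed after its value was seen. With up to 3 fragments summed over the 5 libraries as the limit, 1572 genes (7.97%) are counted, and 2285 (11.6%) stayed under an FPKM of 0.1 in every library.

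Chemoreceptor genes, the seven-transmembrane receptors that sensory neurons use to detect odors and tastes, made up the largest group among the genes at 0. They account for 258 of the 687 (37.6%), beside 6.65% of all protein-coding genes. Of 1311 chemoreceptor genes 12 were at an FPKM of at least 1 in every library, and their median gene was at 0.0173. By family, read from current symbols, 46 of 193 str, 36 of 220 srh, 30 of 109 srw, 22 of 71 srbc and 14 of 39 srj genes were at 0. The highest chemoreceptor was srr-4, with 39.5, 42.4, 41.3, 37.6 and 41.3, and then sri-40 (11.3 ± 1.47 SD, n = 5) and str-176 (6.47 ± 0.908). The rest of the class was at or below 5.12.

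Chromosome V, where many of these families lie, held 376 of the genes at 0 (54.7%), and 7.59% of its genes were at 0. Chromosome III had the lowest share, 19 genes or 0.730%. Outside the chemoreceptors, 15 of 270 nuclear hormone receptors, among them nhr-77, nhr-196 and nhr-217, 13 of 240 C-type lectins and 12 of 94 fip, fipr and nsp peptide genes were at 0. No gene of the ribosomal, translation factor, proteasome, respiratory chain, germ granule or large chaperone classes was at 0. Of the 687 genes, 321 (46.7%) carry only a clone name in the table. Read from current symbols, 304 of 8830 clone-named genes (3.44%) were at 0, close to the 3.48% of all protein-coding genes.

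Outside protein-coding genes the table held few abundant transcripts. Pseudogenes took 0.499% ± 0.0125 of all FPKM, noncoding RNA 0.429% ± 0.0323 and ribosomal RNA 0.122% ± 0.0731 (SD, n = 5). The leading noncoding gene was tts-1, a long noncoding RNA of chromosome X known to be abundant in long-lived mutants, with 873, 888, 1160, 1389 and 911 in replicates 1 to 5. It was highest in replicate 4. The 26S ribosomal RNA gene rrn-3.1 had 455, 262, 339, 1049 and 1543, and thus differed 5.90-fold between replicates 2 and 5. These are fragments assigned to the gene, and the cause of the difference was not tested. The other leading genes, F20C5.10 (405 ± 13.7), Y53F4B.45 (252 ± 11.6), the pseudogene F07H5.5 (232 ± 11.4) and Y48G10A.9 (166 ± 14.9), were steadier.

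The 5 libraries were alike across most genes. The spread of a gene was measured as the SD of log2(FPKM + 0.5) over the 5 libraries after scaling, for the 12346 genes with a mean FPKM of at least 1 and a mean of at least 50 fragments. The median SD was 0.116, and 78.8% of genes had an SD under 0.2. Counting alone would give a median of 0.0449, so the median gene varied 2.57 times as much as counting predicts. An SD of at least 0.5 was found for 134 genes (1.09%), and an SD of at least 1 for 13. Across genes, the Pearson correlation of any 2 libraries lay between 0.992 and 0.995, given as a description.

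**Figure D4:**
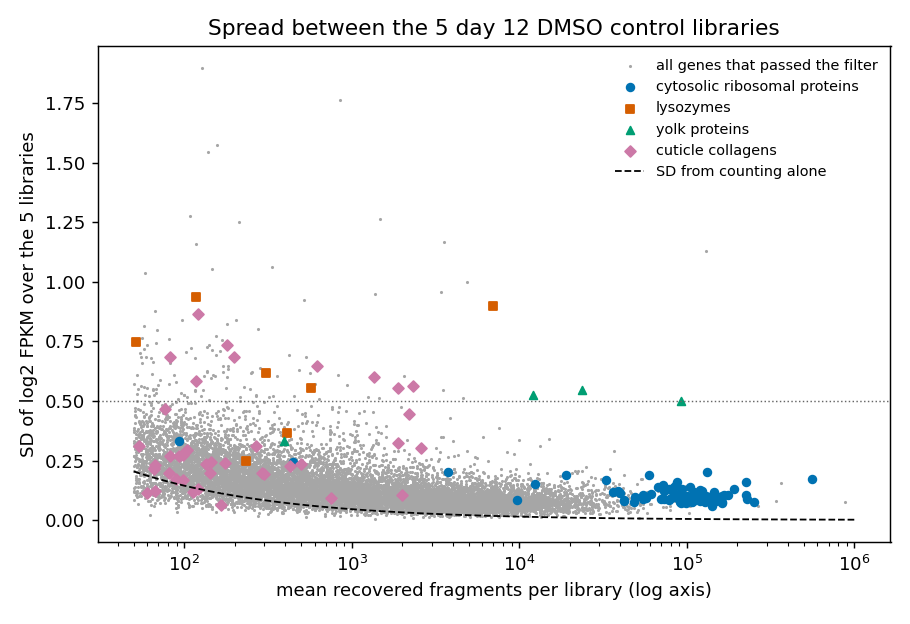
SD of log2 FPKM over the 5 DMSO libraries (vertical axis) against the mean recovered fragments per library (horizontal log axis), 1 point per gene, with ribosomal proteins, lysozymes, yolk proteins and cuticle collagens in color. The dashed curve is the SD that counting alone gives and the dotted line marks 0.5. Ribosomal proteins sit far below the dotted line, and 5 of 7 lysozymes and 3 of 4 yolk genes lie at or above it.

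Of the 134 genes, 125 are protein-coding, 4 are pseudogenes, 3 are ribosomal RNA genes and 2 were not in the annotation, and the genes named below are the 20 most variable among the protein-coding ones. The ribosomal RNA genes rrn-3.1, rrn-1.2 and rrn-1.1 had SDs of 1.13, 0.998 and 0.957. The largest SD, 1.90, was that of nspa-3, a short peptide gene whose identifier now carries the name nspa-1, with an FPKM of 68.7, 4.71, 2.49, 28.4 and 23.5 in replicates 1 to 5. Its relative nspa-7 had an SD of 1.55 and a different low library, with 22.6, 38.9, 23.5, 2.01 and 21.8. The nspa genes are near-identical copies, so shifts of reads between them cannot be told apart from changes in level. For nspe-1 (6.46, 11.7, 24.7, 17.7 and 2.14) and nspe-2 (3.57, 6.91, 13.8, 10.1 and 1.31) the 2 genes had the same order of libraries, highest in replicate 3 and lowest in replicate 5.

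Some genes were raised in a single library. Y45G12C.16 was at 24.7 in replicate 4 and between 1.28 and 2.29 in the others. The gene pes-2.1 was at 4.45 in replicate 3 and between 0.376 and 0.635 elsewhere, and C24H11.2 was at 3.43 in replicate 2 and at most 0.739 elsewhere. B0393.8 took a different course, with 68.5, 22.2, 117, 9.51 and 5.78, a 20.2-fold range. C01B4.7 was low in replicates 3 and 4 (0.772 and 0.735) and between 3.39 and 4.59 in the other libraries.

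A frequent order among the 134 genes was low in replicates 1 and 5 and higher in replicates 2, 3 and 4. It was shown by 71 of them (52.99%), beside 12.8% of all 12346 genes, and was chosen after the values were seen. The opposite order was shown by 4 of the 134 (2.99%), beside 17.6% of all genes. The cathepsin B-like protease cpr-1 was at 6.30, 45.6, 38.2, 15.2 and 6.69, and F57F5.1, a further gene of this protease family, at 6.35, 31.02, 24.7, 13.6 and 7.26. The saposin-like gene spp-2 was at 3.81, 21.6, 18.4, 10.6 and 4.26. All 3 genes were lowest in the same libraries as the yolk genes.

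Lysozymes, which digest bacterial cell walls in the gut, varied between libraries. Their share of protein-coding FPKM differed 3.35-fold between replicates 1 and 2, the widest of the 48 classes. The gene lys-7 alone held 79.1% of the lysozyme FPKM, so this share mostly follows it, and 5 of the 7 that passed the filter had an SD of at least 0.5. The leading gene lys-7 had 50.7, 219, 181, 161 and 67.8, and lys-4 had 0.676, 5.07, 4.08, 2.11 and 1.05. An exception was lys-3, at 12.1, 7.32, 6.55, 12.1 and 16.01, which was lowest in replicates 2 and 3, where lys-7 was highest. Collagen col-101 (0.613, 3.60, 1.51, 3.51 and 0.796), the branched-chain fatty acid elongase elo-5 (1.35, 6.42, 5.77, 3.73 and 1.65), C08F11.12 (6.48, 34.9, 31.8, 23.96 and 17.3) and Y51F10.7 (2.53, 10.7, 8.27, 6.09 and 2.85) were likewise lowest in replicate 1.

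A smaller set had its minimum in replicate 3. The lectin clec-197 was at 2.62, 6.03, 1.47, 3.06 and 7.25 and the secreted protein gene scl-15 at 0.841, 2.74, 0.329, 1.75 and 2.89. Both were highest in replicate 5, a library in which the lysozymes and yolk genes were low. Of the 134 genes, 64 were lowest in replicate 1 and 51 highest in replicate 2, while 8 were lowest in replicate 4 and 6 highest in replicate 1. The same counts were not made over all genes that passed the filter. They therefore describe these 134 genes and do not set them apart from the rest.

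Of the 134 genes, 74 belong to none of the classes. They are 0.706% of the 10477 genes without a class that passed the filter, a lower share than the 1.09% of all genes. An SD of at least 0.5 was found for 6 of 19 lysosomal proteases, 9 of 41 cuticle collagens, 10 of 34 fip, fipr and nsp peptide genes and 3 of 4 yolk genes that passed the filter, beside 1.09% of all genes. Read as the median deviation of a group in each library, lysozymes ran from -0.51 in replicate 5 to 0.81 in replicate 2, and lysosomal proteases from -0.38 in replicate 1 to 0.37 in replicate 2. The hypodermis list ran from -0.33 in replicate 1 to 0.20 in replicate 4. The median deviation of the germ line list stayed between -0.05 and 0.04 and that of the neuron list between -0.01 and 0.04. Single genes can still vary where such a median is near 0. The median SD was 0.0623 in the germ line list and 0.136 in the neuron list, beside 0.116 over all genes.

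**Figure D5:**
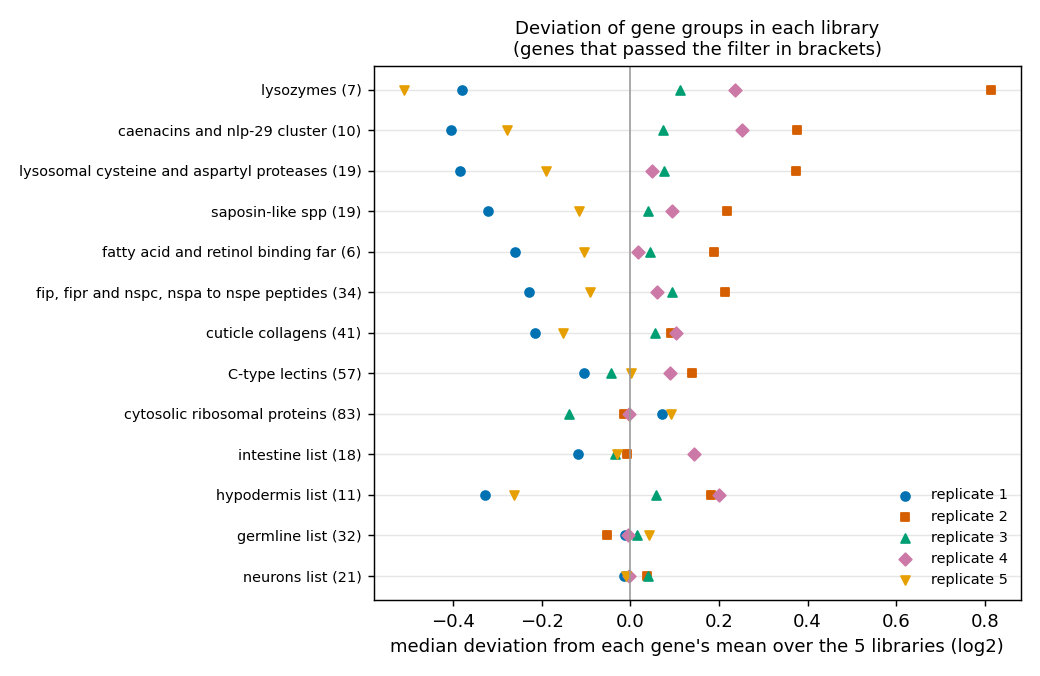
Median deviation of the genes of a group from their own mean over the 5 libraries, in log2 units (horizontal axis), with 1 symbol per DMSO library and the number of genes that passed the filter in brackets. Replicates 1 and 5 lie left of 0 and replicate 2 right of it in lysozymes, proteases and collagens, and the germ line and neuron lists stay close to 0.

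Library composition moved beside this pattern. Replicates 1 and 5, low for yolk, lysozyme and collagen genes, had the 2 highest shares of cytosolic ribosomal proteins (32.4% and 32.3%), and replicate 5 had the most rrn-3.1. Replicate 2, where these genes were high, was the deepest library and had the least rrn-3.1. Replicate 4, which had the second most rrn-3.1, was not low for them. The part of depth and of ribosomal RNA in the pattern was not tested.

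At the quiet end, the 10 steadiest genes with a mean FPKM of at least 20 had SDs of 0.00909 to 0.0147. They were exoc-7, a subunit of the exocyst, glh-1, C17E4.6, W04C9.4, nra-2, dnj-27, arf-3, Y47D3A.13, sart-3 and spe-39. The FPKM of exoc-7 was 21.5, 22.1, 22.2, 21.4 and 20.8, and that of glh-1 was 377, 392, 394, 377 and 370. The SD of exoc-7 lay below the 0.0300 that counting alone gives it, whereas that of glh-1, 0.0107, lay above its 0.00632. A list picked as the smallest of 5593 values will contain some that are small by chance.

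Genes in common use as references for quantitative PCR were steady but not equally so. Among 8 of them rbd-1 had the smallest SD (0.0457) and tba-1 the largest (0.114). The pair used as references in this study, act-1 and cdc-42, had SDs of 0.0919 and 0.0559. The FPKM of act-1 was 68.8, 64.8, 59.4, 62.9 and 61.3, and that of cdc-42 was 196, 189, 206, 196 and 193. In these unscaled values replicate 3 had the lowest act-1 and the highest cdc-42. The scale factors behind the SDs were 1.03 in replicate 3 and 0.958 in replicate 5. After scaling, replicate 3 is no longer the highest for cdc-42. The actin gene act-1 has close copies, so part of its value may belong to them. Of the rest, ama-1, the large subunit of RNA polymerase II, was at 129 ± 5.63, pmp-3 at 33.03 ± 2.01, eif-3.C at 91.6 ± 3.67 and Y45F10D.4 at 112 ± 5.48 (SD, n = 5).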

How the data were processed

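RNA of whole worms was made into random-primed NEBNext libraries and sequenced in pairs on an Illumina instrument. Per the submitters' processing notes, reads were aligned with HISAT2 to WBcel235. The counting tool, its use of strand and the annotation release are not given in the sources used here. The authors deposited 1 table of FPKM values for 46906 genes, in which every library is divided by its own total and every gene by its length. Genes without close copies are measured most safely, and FPKM of very short genes rests on few fragments.

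Fragments were recovered from the FPKM. The smallest step of the 21-nucleotide piRNA genes gave each library's total, and the shortest gene length that made fragments whole to within 0.0001 in all 15 libraries gave the length. The extract libraries served only this step. Gene type, chromosome and coordinates come from Ensembl release 115 of the same build, in which 303 identifiers were not found, and gene names are those of the table (2040 differ from current symbols).

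For the spread, FPKM of the 5 libraries was scaled by trimmed mean factors over protein-coding genes (30% of log ratios and 5% of levels trimmed), 0.5 was added and the SD of log2 taken, beside the SD that the recovered fragments alone would give. Recovery of lengths and fragments, and the SD, were tested on simulated tables of 5 libraries with known totals. These tables covered genes with a mean of at least 50 fragments. The step that gives each library's total was not tested. Python 3.11.15, numpy 2.4.6, pandas 2.3.3 and matplotlib 3.10.9 were used. With 1 group no test across samples applies. Intervals and floors, at 3 fragments, cover counting error only.

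The genes and lists were chosen with earlier results of these data known, and some class definitions were corrected after values were seen. Named are the 25 most abundant protein-coding genes, the 6 most abundant others, the 20 most variable and, at a mean FPKM of at least 20, the 10 steadiest protein-coding genes, up to 4 leading members of a class or list, genes at 0, 8 reference genes and clone-named genes among the first 100. Further genes are named as examples of a known role and were chosen after their values were seen. Alternatives changed the denominator, the unit, the filter, the pseudocount, the scaling, the depth and the libraries used.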

Additional observations from a re-analysis of the deposited data

Results flagged for a closer look

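Of 275 values given per library, 11 had 1 library well apart from the other 4, by Dixon's criterion. Chance would meet it in about 1 of 20 independent groups, or 13.8 of these values. The values overlap, and some genes were picked for their spread in these same libraries. The count therefore cannot be set against chance, and the values are given as a description. The eggshell and oocyte share was 1.41% in replicate 5 and at least 1.46% in the others. The small heat shock protein share was 0.291% in replicate 2 and at most 0.252% in the others.

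Replicate 3 was apart in 5 of the genes. It had the lowest FPKM of the ribosomal protein gene rpl-27 (4540, next 4855), of prdx-2 (497, next 553) and of W01D2.1 (3909, next 4209). It had the highest of nhr-23 (46.97, next 41.8) and of pes-2.1 (4.45, next 0.635). Replicate 2 was highest for crt-1 (1411, next 1356) and C24H11.2 (3.43, next 0.739). Replicate 4 was highest for Y45G12C.16 (24.7, next 2.29), and replicate 5 for med-1 (0.163, next 0.0342), which is near the floor of 3 fragments.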

How the results depend on the processing

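Among the alternative values of 15 results, 100 stayed within the spread between libraries, or within 1.5 times for a count, 22 moved and 0 changed sign. On the scale of fragments, in place of FPKM, the 10 most abundant genes took 6.66%, the 100 most abundant 24.5%, ribosomal proteins 16.6%, mitochondrially encoded genes 0.294%, yolk proteins 0.239%, sarcomere proteins 0.339% and eggshell and oocyte genes 1.83%, and 11 of the 25 leading genes were shared. Added after the data were seen, the 3 clone-named homologues raised the ribosomal share to 33.3%, and leaving out 5 widely used genes lowered the sarcomere share to 0.1003%. Genes at 0 became 1572 with up to 3 fragments allowed and 2285 under an FPKM of 0.1. Genes with an SD of at least 0.5 numbered 245 with a pseudocount of 0.1, 480 with every gene above 0 in all 5 libraries, 55 from a mean FPKM of 5 and 28 from 500 fragments. The median SD under the last 3 of these was 0.144, 0.0965 and 0.0901. The X-linked minus autosomal difference was -1.59 with every gene above 0, -1.62 from a mean FPKM of 5 and -1.77 without the germ line, oocyte and sperm lists. Leaving out 1 library at a time moved none of 65 values beyond these limits, and these 65 are among the 100 that stayed. For the shares and the X-linked minus autosomal difference this outcome was fixed in advance. A mean over 5 libraries cannot shift by their SD when 1 of them is dropped, so no stability can be read from it. The count of genes with an SD of at least 0.5 then ran from 120 to 165, and of genes at 0 from 776 to 934. Without the mitochondrially encoded genes in the denominator, their own share has no value. No paired analysis was possible because the 5 libraries form 1 group and no test between groups was run.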
